A study of Homo sapiens with 40 samples.

Results

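The nuclear genes that copy, replicate and protect mitochondrial DNA (mtDNA) were described here across WT and PARP1-KO HEK293A cells. The members are 10 named genes out of 58395 in the count table, chosen by name with earlier results of these data known: POLRMT, TFAM, TFB1M, TFB2M, TEFM, MTERF1, TWNK, POLG, LRPPRC and SLIRP. All 10 were counted in every library and passed the filter on low counts. HEK293A is a human embryonic kidney line, and the PARP1-KO cells are 1 CRISPR/Cas9 clone derived from it, so the loss of PARP1 and the selection of that clone cannot be told apart. Each genotype was left untreated, or given 0.1% DMSO, 5 µM OL9-119, topotecan (Tpc), or Tpc with OL9-119 for 5 to 5.5 h, with 4 libraries in each of the 10 groups and 40 libraries in all. OL9-119 is an inhibitor of tyrosyl-DNA phosphodiesterase 1 (TDP1), and Tpc is a topoisomerase 1 poison. Every drug group also held 0.1% DMSO. Tpc was given at 100 nM to WT cells and at 50 nM to PARP1-KO cells, so the genotypes were not compared at a matched dose of that drug.

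Human mtDNA is transcribed from promoters on its heavy and light strands by a dedicated RNA polymerase, POLRMT. TFAM bends and packages mtDNA and recruits the polymerase, TFB2M melts the promoter, TEFM keeps the polymerase elongating, and MTERF1 binds downstream of the ribosomal RNA genes, where it blocks transcription. TFB1M, a relative of TFB2M, methylates the small mitochondrial ribosomal RNA. TWNK is the helicase and POLG the catalytic polymerase subunit of the replisome, which uses primers made by POLRMT. LRPPRC and SLIRP form a complex that binds and stabilises mitochondrial mRNAs.

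The promoters of 5 members are shown because the results below turn on these genes. POLRMT and TFB1M also hold letter matches to motifs of nuclear respiratory factors, known regulators of this machinery. Binding was not measured. The sequences are RefSeq, assembly GRCh38.p14, all 5′ to 3′ on the strand of the gene, with up to 150 bases before the annotated gene start. Capitals mark matches on either strand to an NRF1 motif (GCGC, any base, then TGCGC), an ETS/GABP motif (CCGGAAG) or a YY1 motif (AAGATGGC).
POLRMT, chr19:633538-633687, minus strand: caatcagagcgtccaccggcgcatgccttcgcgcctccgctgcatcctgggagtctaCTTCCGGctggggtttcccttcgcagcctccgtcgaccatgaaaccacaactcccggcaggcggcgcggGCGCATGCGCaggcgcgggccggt
TFB1M, chr6:155314494-155314634, minus strand: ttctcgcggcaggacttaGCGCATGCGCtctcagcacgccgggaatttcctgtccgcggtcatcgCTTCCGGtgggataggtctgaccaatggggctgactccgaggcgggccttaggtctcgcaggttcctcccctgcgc
TFB2M, chr1:246566262-246566411, minus strand: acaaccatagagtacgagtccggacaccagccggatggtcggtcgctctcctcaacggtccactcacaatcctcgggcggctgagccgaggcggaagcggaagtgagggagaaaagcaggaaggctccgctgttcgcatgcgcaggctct
MTERF1, chr7:91880703-91880852, minus strand: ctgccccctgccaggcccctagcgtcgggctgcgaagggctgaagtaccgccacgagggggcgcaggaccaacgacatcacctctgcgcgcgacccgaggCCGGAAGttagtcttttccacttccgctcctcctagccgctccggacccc
SLIRP, chr14:77707953-77708070, plus strand: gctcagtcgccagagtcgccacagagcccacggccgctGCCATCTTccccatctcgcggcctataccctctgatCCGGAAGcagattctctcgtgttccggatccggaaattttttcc

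Promoter entries were matched for 9 of the 10 members, over 250 bases before to 50 bases after each start, and TWNK was not among them. SLIRP had 2 entries, and the one at the higher coordinate was used. The NRF1 motif was found in POLRMT (24 bases upstream), TFAM (63 bases upstream) and TFB1M (132 bases upstream), and in 5.78% of all 35116 promoters in the table. The ETS motif was found in POLRMT, TFB1M, TEFM, MTERF1 and SLIRP, and in 10.3% of all promoters. The YY1 motif was found in SLIRP 112 bases upstream and 7 bases downstream of its start, and in 2.89% of all promoters. None of the 3 letter strings was found in TFB2M, POLG or LRPPRC, which says only that these letters are not in that window.

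Library totals ranged from 3455043 to 20379777 counts, and their median was 9258040 for WT and 11407498 for PARP1-KO libraries. After each library was thinned to 3455043 counts, 15520 to 20615 genes were detected in WT libraries and 17960 to 21602 in PARP1-KO libraries, and the 8 libraries under 17000 genes were all WT. PARP1 itself fell to between 4.33% and 5.24% of its WT level in the 5 treatments (p = 0.0286 in each, exact two-sided permutation test, the smallest value that 4 against 4 libraries can give). The HEK293 markers KRT8, KRT18, VIM, CDH2 and NEFL were present. NEFM, of the same list, varied from 3.38 to 49.6 CPM (median 7.05), and INA (at most 3.26 CPM) and PAX2 (at most 12.1 CPM, median 1.4) were low. The markers of other cell types reached at most 5.55 CPM (VWF), apart from the collagen genes COL1A1 at 9.1 to 43.0 CPM and COL3A1 at 7.62 to 21.4 CPM. The labels call the replicates biological, the study's methods call them technical in 1 place, and neither ties each to a culture of its own, so p-values measure the spread between these libraries, which may be technical.

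Of the PARP1-KO libraries, 2 went against their labels. A drug score was taken as the mean log2(CPM + 1) of the genes called higher minus that of the genes called lower in WT cells with Tpc (160 and 88 genes) or with OL9-119 (130 and 241 genes), where CPM is the count scaled to library size. The library labelled PARP1-KO DMSO replicate 3 had a Tpc score of 0.09 and an OL9-119 score of −0.54, whereas the other 3 of its group lay from −0.40 to −0.37 and from −0.82 to −0.79. The library labelled PARP1-KO Tpc with OL9-119 replicate 3 had a Tpc score of −0.42 and an OL9-119 score of −0.82, whereas the other 3 of its group lay from 0.08 to 0.10 and from −0.52 to −0.44. Neither library was moved to another group. The calls that rest on them are given with both libraries left out as well, an alternative chosen after the data were seen.

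Levels differed widely among the members. Per kilobase of the canonical transcript, the mean level over the 20 WT libraries was 130.0 ± 29.2 CPM per kb for SLIRP, 43.5 ± 6.87 for TFAM, 41.5 ± 4.16 for LRPPRC and 24.9 ± 3.18 for POLG (SD over libraries). TWNK followed at 15.6 ± 4.07, TEFM at 11.7 ± 2.51, POLRMT at 11.5 ± 2.59, MTERF1 at 5.63 ± 1.67, TFB1M at 4.20 ± 1.54 and TFB2M at 3.68 ± 1.95 CPM per kb. The neighbours TFAM and LRPPRC, TWNK and TEFM, TEFM and POLRMT, MTERF1 and TFB1M, and TFB1M and TFB2M differed by less than the larger of their SDs. The order depends on the length used, since LRPPRC stood at 7.90 and SLIRP at 18.6 CPM per kb when divided by all annotated exon bases. In PARP1-KO cells TFB2M was at 6.76 ± 1.29 and TFB1M at 5.55 ± 1.01 CPM per kb, which is the opposite order, by less than the SD of TFB2M (6.82 ± 1.32 and 5.56 ± 1.06 over the 18 libraries that matched their labels).

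PARP1-KO and WT cells were first compared without treatment. None of the 10 members passed the threshold, an adjusted p under 0.01 from edgeR's quasi-likelihood test over the 28922 genes tested, whereas 11.7% of all genes tested did and 28.4% of the 10523 genes with a mean CPM of at least 10. At an unadjusted p under 0.05 there were 2 members, and DESeq2 called 0. TFB1M came nearest, at 8.83 ± 4.61 CPM in WT and 14.97 ± 2.80 CPM in PARP1-KO cells (SD, n = 4 each), a log2 fold change of 0.75 with an adjusted p of 0.0552. TFB1M passed without untreated WT replicate 1 (1.13, adjusted p = 0.00505) and without the 8 WT libraries under 17000 genes (0.82, adjusted p = 0.00846). TFB1M counts are uncertain, because 30.7% of its exon bases lie opposite exons of TIAM2 and the strand column kept from the counting is not stated. The same limit holds to a lesser degree for TEFM (20.5% of exon bases), POLG (5.53%, FANCI), SLIRP (4.48%, SNW1) and TWNK (3.6%, MRPL43). Exons of other genes on the same strand share 14.4% of the exon bases of TFB1M and 10.3% of those of SLIRP. CPM is a share of the RNA of a whole culture, so fewer cells of a kind and less RNA per cell cannot be told apart.

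With DMSO, 3 of the 10 members were higher in PARP1-KO than in WT cells and none was lower, where 12.4% of all genes tested and 29.7% of the genes with a mean CPM of at least 10 passed, and 6.67% of all genes tested were higher. They were TFB2M, the promoter-melting initiation factor, TWNK, the mtDNA helicase, and POLRMT, the polymerase. TFB2M stood at 7.25, 3.38, 1.92 and 5.79 CPM in the 4 WT libraries and at 10.7, 8.93, 12.4 and 11.4 CPM in the 4 PARP1-KO libraries. The groups did not overlap, and the log2 fold change was 1.23 with an SE of 0.33, 2.34-fold, at an adjusted p of 0.00454. It is a low gene, counted from 16 to 320 times in the 40 libraries. Without the 2 libraries that went against their labels the TFB2M difference was 1.15 and its adjusted p 0.0179, so the call was lost, and without the 8 WT libraries under 17000 genes it was 0.69 with an adjusted p of 0.0644. Leaving out WT DMSO replicate 2, WT DMSO replicate 3, PARP1-KO DMSO replicate 3 or PARP1-KO DMSO replicate 4 also ended the TFB2M call, at differences of 1.09, 0.96, 1.15 and 1.203, as did limiting the fit to the libraries compared (1.21, adjusted p = 0.0528) and length and GC offsets with a replicate block (1.07, adjusted p = 0.0114).

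TWNK stood at 41.7, 48.3, 32.8 and 44.2 CPM in WT libraries with DMSO and at 62.0, 68.9, 65.1 and 60.8 CPM in the PARP1-KO libraries. Every PARP1-KO library was above every WT library, and the log2 fold change was 0.62 with an SE of 0.14 and an adjusted p of 0.000545. The call held without the 2 libraries that went against their labels (0.62, adjusted p = 0.00145) and whichever of the 8 libraries was dropped, and was lost when the fit was limited to these 8 libraries (0.60, adjusted p = 0.018). POLRMT stood at 41.2, 34.1, 27.7 and 36.5 CPM in WT and at 64.0, 58.4, 38.0 and 59.9 CPM in PARP1-KO libraries. The groups overlapped through the library labelled PARP1-KO DMSO replicate 3, at 38.0 CPM. The POLRMT log2 fold change was 0.66 with an SE of 0.18 and an adjusted p of 0.00623, and 0.80 with an adjusted p of 0.00132 without the 2 libraries. With the number of genes detected as a covariate the POLRMT difference was 0.36 (adjusted p = 0.19), without the 8 WT libraries under 17000 genes 0.49 (adjusted p = 0.0553), and leaving out any 1 of 6 of the 8 libraries (WT replicate 2, 3 or 4, PARP1-KO replicate 1, 2 or 4) also ended the call.

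MTERF1, which binds past the ribosomal RNA genes, did not pass with DMSO in edgeR (0.59, adjusted p = 0.0211), although its groups did not overlap, at 16.6 to 19.6 CPM in WT and 22.1 to 34.9 CPM in PARP1-KO libraries. MTERF1 did pass in DESeq2 (0.58, adjusted p = 0.00923), with the number of genes detected as a covariate (0.74, adjusted p = 0.00688) and without the 8 WT libraries under 17000 genes (0.63, adjusted p = 0.00854), and stood at 0.47 (adjusted p = 0.114) without the 2 libraries that went against their labels. The other 6 members differed by −0.05 to 0.35 on the log2 scale with DMSO. Of these, TFB1M passed without the 8 WT libraries, at 0.87 in place of 0.35 (adjusted p = 0.00428), so that fit called TWNK, MTERF1 and TFB1M where the fit of all libraries called TFB2M, TWNK and POLRMT. The initiation factor TFAM was at 200.7 ± 36.8 CPM in WT and 213.6 ± 42.5 CPM in PARP1-KO cells, and 192.6 ± 6.59 CPM (n = 3) without the library labelled PARP1-KO DMSO replicate 3, which stood at 277 CPM. The direction of TFAM depended on the scaling: with offsets for transcript length and GC content its log2 fold change was −0.29 with an adjusted p of 0.00554.

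**Figure D1:**
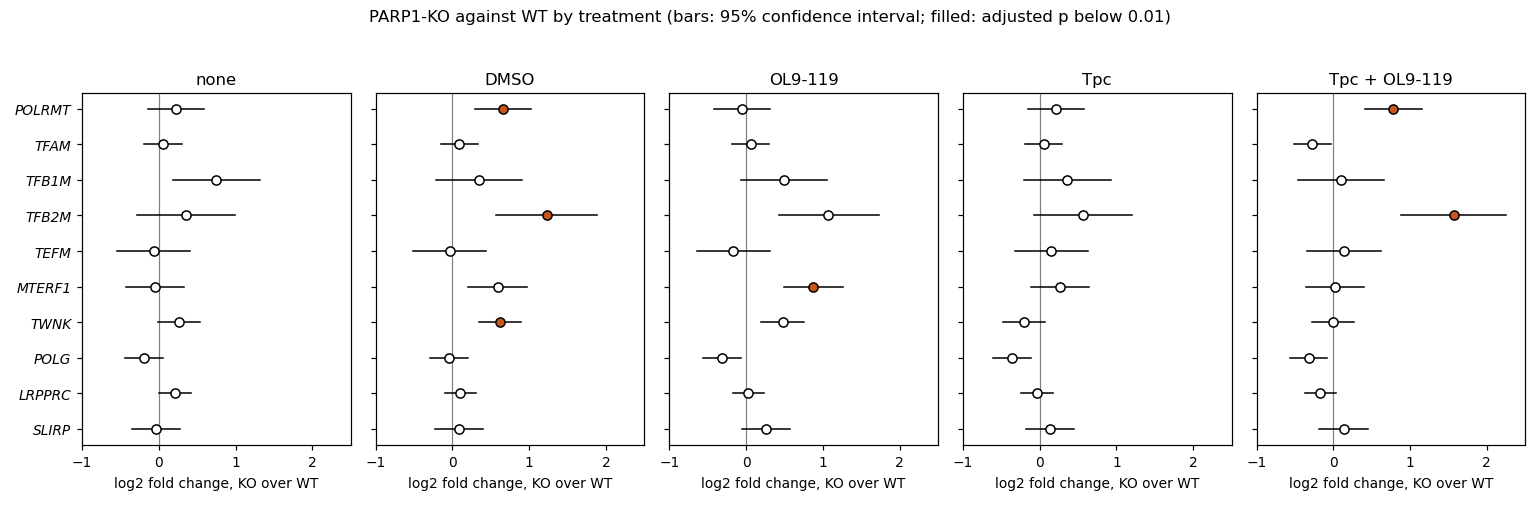
Log2 fold change of each member in PARP1-KO against WT cells in each treatment, with 95% confidence intervals as bars, a vertical line at 0 and filled points where the adjusted p was under 0.01. TFB2M is filled with DMSO at 1.23 and with Tpc and OL9-119 at 1.57, and no member is filled without treatment or with Tpc alone.

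With OL9-119, 1 of the 10 members passed and was higher, where 9.77% of all genes tested passed and 4.94% were higher. Among genes with a mean CPM of at least 10 a larger share passed, and more than the share of the members. That share is given below with the other nuclear genes, and it also exceeded the share of all genes with Tpc and with both drugs. MTERF1 stood at 16.8, 10.6, 13.6 and 17.1 CPM in WT and at 27.9, 23.9, 28 and 27.2 CPM in PARP1-KO libraries. The groups were apart, with a log2 fold change of 0.88, an SE of 0.19 and an adjusted p of 0.000562, and 0.88 (adjusted p = 0.000448) without the 2 libraries, which are in neither group but share the estimate of spread. With offsets for length and GC content the MTERF1 difference was 0.58 (adjusted p = 0.0171). TFB2M (1.07, adjusted p = 0.0151) and TWNK (0.48, adjusted p = 0.0107) lay just past the threshold, both with groups that did not overlap, and TWNK passed without the 2 libraries (0.49, adjusted p = 0.00781).

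With Tpc, at unequal doses, none of the 10 members passed where 8.52% of all genes tested did; 1 member had an unadjusted p under 0.05 and DESeq2 called 0. That member was POLG, the replicative polymerase, at 118.0 ± 19.5 CPM in WT and 91.7 ± 16.8 CPM in PARP1-KO cells (−0.36, adjusted p = 0.0344). POLG was below WT in every treatment, at −0.19 untreated, −0.05 with DMSO, −0.31 with OL9-119 and −0.32 with both drugs. Its groups did not overlap with OL9-119 (adjusted p = 0.0737) or with both drugs (adjusted p = 0.0713). With length and GC offsets POLRMT passed with Tpc (0.54, adjusted p = 0.002). With Tpc and OL9-119, TFB2M and POLRMT were higher in PARP1-KO cells, 2 of 10 members where 7.27% of all genes tested passed and 3.56% were higher. Of the 71 other nuclear genes of mitochondrial gene expression described below, 15 passed with both drugs. TFAM, not called, differed by −0.27 with groups that did not overlap (adjusted p = 0.138), and by 0.05 to 0.09 in the other treatments. TFB2M stood at 3.36, 3.56, 3.61 and 6.86 CPM in WT and at 12.4, 12.8, 9.76 and 14.5 CPM in PARP1-KO libraries. The groups did not overlap, and the log2 fold change was 1.57 with an SE of 0.34, 2.96-fold, at an adjusted p of 0.000705. Under all 13 alternatives other than leaving out 1 library, and with each of the 8 libraries left out, the TFB2M call was kept, and without the 2 libraries it was 1.67 (adjusted p = 0.000925). POLRMT stood at 30.4, 33.9, 49.1 and 34.3 CPM in WT and at 66.5, 77.4, 48.0 and 62.2 CPM in PARP1-KO libraries. The groups overlapped through the library labelled replicate 3 of the PARP1-KO group, and the log2 fold change was 0.78 with an SE of 0.19 and an adjusted p of 0.00182, or 0.90 (adjusted p = 0.000487) without the 2 libraries. The POLRMT call was lost with the number of genes detected as a covariate (0.56, adjusted p = 0.0271), without the 8 WT libraries under 17000 genes (0.59, adjusted p = 0.028), and without WT replicate 1 (0.71, adjusted p = 0.0155) or PARP1-KO replicate 2 (0.68, adjusted p = 0.0167).

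The 3 conditions without Tpc have matched exposures in both genotypes, so the PARP1-KO minus WT difference was also averaged over them, a contrast added after seeing the data. In it 4 of the 10 members were higher in PARP1-KO cells and none was lower, where 27.7% of all genes tested passed and 15.8% were higher. Of the 71 other nuclear genes described below, 35 passed in either direction, a larger share than of the members. TFB2M was higher by 0.89 on the log2 scale (SE 0.19, adjusted p = 9.94e-05), TWNK by 0.45 (SE 0.08, adjusted p = 4.25e-06), MTERF1 by 0.47 (SE 0.11, adjusted p = 0.000378) and TFB1M by 0.53 (SE 0.16, adjusted p = 0.00712). MTERF1 was not higher in each condition, at −0.045 untreated, 0.591 with DMSO and 0.876 with the TDP1 inhibitor. The differences of TFB2M, TWNK and TFB1M were positive in each. The TFB2M and TWNK calls held in all 13 alternatives other than leaving out 1 library and with each of the 24 libraries left out. MTERF1 was lost with length and GC offsets (0.15, adjusted p = 0.266), and TFB1M likewise (0.34, adjusted p = 0.0904), with the library name prefix as covariate (0.46, adjusted p = 0.0262), with the fit limited to the libraries compared (0.52, adjusted p = 0.0154) and in 13 of 24 fits without 1 library. POLRMT, at 0.28 and not called, passed without the 2 libraries that went against their labels (0.33, adjusted p = 0.00913) and with length and GC offsets (0.47, adjusted p = 4.29e-07). Its mean also joins unlike conditions, at 0.227 untreated, 0.658 with DMSO and −0.056 with the TDP1 inhibitor. POLG, also not called, differed by −0.18 (adjusted p = 0.0325). The 4 genes sit on 4 chromosomes: TFB2M on chromosome 1 from 246540561 to 246566261, TWNK on chromosome 10 from 100987367 to 100994403, MTERF1 on chromosome 7 from 91692008 to 91880702 and TFB1M on chromosome 6 from 155256134 to 155314493 (GRCh38, whole genes). Among genes with a mean CPM of at least 10 within 5 Mb, the median of the same difference was −0.36 over 75 neighbours of TWNK, −0.08 over 15 of TFB2M, 0.11 over 34 of MTERF1 and 0.16 over 28 of TFB1M. The 4 neighbours of TFB2M within 1 Mb had a median of 0.30. Within 1 Mb the median was 0.21 over 10 neighbours of MTERF1, 0.29 over 3 of TFB1M and −0.36 over 20 of TWNK. Within 10 Mb it was 0.23 over 48 neighbours of TFB1M, of which 36 were positive. The 10 Mb medians were −0.025 for MTERF1, −0.04 for TFB2M and −0.23 for TWNK.

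Treatments were compared with untreated cells within each genotype. In WT cells with DMSO none of the 10 members and none of the 28922 genes passed in edgeR, with 4 members and 3116 genes at an unadjusted p under 0.05, and DESeq2 called 0 members and 9 genes. TFB2M differed by −1.12 (adjusted p = 0.27), or −0.63 (adjusted p = 0.565) without untreated replicate 3. MTERF1 differed by −0.58 (adjusted p = 0.296), TWNK by −0.36 (adjusted p = 0.34) and POLRMT by −0.46 (adjusted p = 0.358), the last with groups that did not overlap. These are the same WT DMSO libraries on which the PARP1-KO to WT differences with DMSO rest, and 2 of the 4, like 2 of the 4 untreated WT libraries, are among the 8 under 17000 genes.

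In WT cells with OL9-119, 2 of the 10 members were lower than in untreated cells, where 1.28% of all genes tested and 3.43% of those with a mean CPM of at least 10 passed, and 0.833% of all genes tested were lower. Against DMSO-treated cells 0 of 10 members passed in edgeR, with 2 at an unadjusted p under 0.05, where 1.15% of all genes tested passed. MTERF1 went from 28, 18.5, 40.4 and 23.1 CPM in untreated libraries to 16.8, 10.6, 13.6 and 17.1 CPM. The groups were apart, with a log2 fold change of −0.92, an SE of 0.19 and an adjusted p of 0.00194. The call of MTERF1 in PARP1-KO against WT cells with OL9-119 rests on these same 4 treated WT libraries, so the 2 calls are not independent. SLIRP, the partner of LRPPRC, went from 63.8, 52.1, 76.3 and 58.2 CPM to 39.0, 33.8, 41.9 and 39.9 CPM. All 4 treated libraries were below all 4 untreated ones, with a log2 fold change of −0.70, an SE of 0.16 and an adjusted p of 0.00456. Both calls were lost against DMSO-treated cells, the vehicle of the drug, at −0.34 for MTERF1 (adjusted p = 0.369) and −0.44 for SLIRP (adjusted p = 0.124). They were lost as well without the 8 WT libraries under 17000 genes, at −0.38 and −0.45, and MTERF1 was lost without untreated WT replicate 3, which stood at 40.4 CPM (−0.67, adjusted p = 0.0544), or without OL9-119 replicate 2 or 3. SLIRP was lost in 6 of 8 fits without 1 library (untreated replicates 1 and 3 and each OL9-119 replicate) and with length and GC offsets (−0.46, adjusted p = 0.0338). Both calls were kept without the 2 PARP1-KO libraries, with MTERF1 at −0.91 and SLIRP at −0.69. LRPPRC itself, at 250.1 ± 33.01 CPM untreated and 284.0 ± 16.3 CPM with OL9-119, differed by 0.18 (adjusted p = 0.368), and the ratio of LRPPRC to SLIRP counts had a geometric mean of 4.01 without treatment, 5.07 with DMSO and 7.36 with OL9-119 in WT cells, and of 4.81, 5.11 and 6.35 in PARP1-KO cells.

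Tpc at 100 nM raised no member past the threshold against untreated WT cells in edgeR, where 0.857% of all genes tested passed, with 3 members at an unadjusted p under 0.05 and 1 called by DESeq2. That 1 was the helicase TWNK, at 47.3, 46.9, 68.0 and 52.6 CPM in untreated and 85.7, 78.8, 73.5 and 68.9 CPM in Tpc libraries. The groups did not overlap, with a log2 difference of 0.52 and an edgeR adjusted p of 0.0285, and 0.66 with an adjusted p of 0.00603 without untreated replicate 3. Against DMSO-treated WT cells TWNK rose by 0.88 (SE 0.14, adjusted p = 1.83e-05), 1 of 10 members where 0.985% of all genes tested passed. With Tpc and OL9-119 it rose by 0.65 against DMSO (SE 0.14, adjusted p = 0.00129), where 3.38% of all genes tested passed, and TWNK was again the 1 member called. Against untreated WT cells TWNK differed by 0.29 with both drugs (adjusted p = 0.211), with groups that overlapped. TFAM was at 194.3 ± 29.7 CPM untreated, 247.9 ± 13.2 CPM with Tpc and 251.8 ± 21.3 CPM with Tpc and OL9-119, and neither difference passed (0.35, adjusted p = 0.127, and 0.37, adjusted p = 0.0429).

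With Tpc and OL9-119 none of the 10 members passed against untreated WT cells, where 4.07% of all genes tested did; 7 members had an unadjusted p under 0.05 and DESeq2 called 2. TFB2M differed by −1.26 (adjusted p = 0.0112) and SLIRP by −0.54 (adjusted p = 0.0199). Without untreated WT replicate 3, which held 18.7 CPM of TFB2M against 6.0 to 7.83 CPM in the other 3, the TFB2M difference was −0.79 (adjusted p = 0.158). Adding OL9-119 to Tpc gave 0 calls among the members, with 1 at an unadjusted p under 0.05 and 0 by DESeq2, where 0.18% of all genes tested passed. Adding Tpc to OL9-119 gave 0 calls in edgeR, with 4 members at an unadjusted p under 0.05 and 2 by DESeq2, where 0.408% of all genes passed; MTERF1 differed by 0.79 (adjusted p = 0.025) and TWNK by 0.53 (adjusted p = 0.0415).

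**Figure D2:**
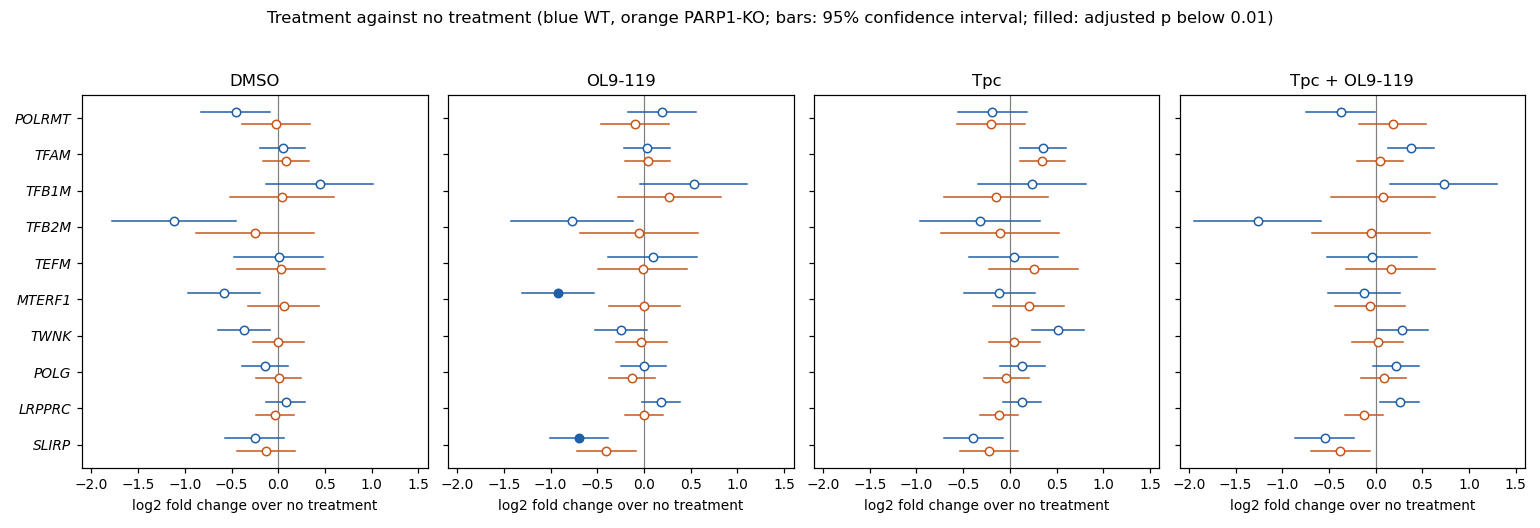
Log2 fold change of each member in treated against untreated cells, WT and PARP1-KO side by side, with 95% confidence intervals as bars and filled points where the adjusted p was under 0.01. The 2 filled points are MTERF1 at −0.92 and SLIRP at −0.70 in WT cells with OL9-119, and no PARP1-KO point is filled.

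In PARP1-KO cells no member passed in any of the 4 treatments against untreated cells, by edgeR or DESeq2. Without the 2 libraries that went against their labels, where only edgeR was run, no member passed either. In the edgeR fit of all libraries there were 0 members at an unadjusted p under 0.05 with DMSO and 1 each with OL9-119, Tpc and both drugs. Few genes of any kind passed in these comparisons: 0.0% of all genes tested with DMSO, 0.00346% with OL9-119, 0.0138% with Tpc and 0.0% with both, and 0 members passed between the drug groups of PARP1-KO cells, where 0.0% of all genes did. Without the 2 libraries the shares were 0.0%, 0.0138%, 0.0553% and 0.0242%. Between the drug groups they were then 0.00692% for both drugs against Tpc and 0.0207% for both against OL9-119. TWNK stood at 64.2 ± 2.43 CPM untreated, 64.2 ± 3.60 with DMSO, 62.9 ± 5.11 with OL9-119, 66.4 ± 7.51 with Tpc and 65.2 ± 11.2 with both (63.9 ± 4.35 with DMSO and 69.9 ± 7.43 with both, n = 3, without the 2 libraries that went against their labels). MTERF1 stood at 26.7 ± 2.76 CPM untreated and 26.8 ± 1.92 CPM with OL9-119. SLIRP was at 61.0 ± 12.4 CPM untreated and 46.2 ± 8.87 CPM with OL9-119, a log2 difference of −0.40 with an adjusted p of 1.0.

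Whether the response itself differed between genotypes was tested as the difference of the responses. No member passed for any treatment in edgeR or DESeq2, where 0.0% of all genes tested passed for DMSO, 0.0657% for OL9-119, 0.1% for Tpc and 0.27% for both. At an unadjusted p under 0.05 there was 1 member each for DMSO, OL9-119 and Tpc and 3 for both drugs. The MTERF1 response to OL9-119 differed by 0.92 against untreated cells (adjusted p = 0.42) and by 0.285 against DMSO-treated cells (adjusted p = 0.851). The TWNK response to Tpc, at unequal doses, differed by −0.83 against DMSO (SE 0.19, adjusted p = 0.033), where 0.173% of all genes tested passed. Against untreated cells the TWNK response differed by −0.495 (adjusted p = 0.588) in the fit without the 2 libraries that went against their labels.

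The other nuclear genes of mitochondrial gene expression, 71 tested from a list fixed with earlier results of these data known, gave 16 higher and 5 lower in untreated PARP1-KO against WT cells and 17 higher and 5 lower with DMSO. These are 29.6% and 31.0% of the list, where 28.4% and 29.7% of genes with a mean CPM of at least 10 passed. With OL9-119 there were 10 higher and 4 lower, with Tpc 6 higher and 5 lower, and with both drugs 11 higher and 4 lower, or 19.7%, 15.5% and 21.1% of the list, where 24.2%, 20.8% and 17.1% of genes with a mean CPM of at least 10 passed. Without the 2 libraries that went against their labels 18 of the 71 passed with DMSO in place of 22, and 13 with both drugs in place of 15. The 11 nuclear regulators that switch such genes on had 6 higher and 0 lower both untreated and with DMSO, or 54.5% of the list, with median log2 fold changes of 0.57 and 0.81 (0.74 with DMSO without the 2 libraries). The medians were 0.17 and 0.19 over all genes tested and 0.01 and 0.02 over genes with a mean CPM of at least 10. In the fit without the 2 libraries, 4 of the 11 regulators were higher with OL9-119, 3 with Tpc and 5 with both drugs, and 0 were lower. Their medians were 0.60, 0.51 and 0.31, and 9.91%, 8.56% and 5.86% of all genes tested passed there. Not every regulator was raised, since ESRRA averaged 43.92 CPM over WT and 30.99 CPM over PARP1-KO libraries. Of 6 further genes of mtDNA transcription and the nucleoid, 0 were higher and 1 lower untreated (median −0.15), and 0 passed with DMSO in edgeR (median −0.04), with 0 at an unadjusted p under 0.05. Of 10 further genes of mtDNA replication and maintenance, 3 were higher and 0 lower in both conditions, and of 7 genes of mitochondrial nucleotide supply 2 were higher and 0 lower. Of 22 genes that process or modify mitochondrial RNA, 5 were higher and 1 lower untreated and 5 higher and 2 lower with DMSO. Of 15 genes of mitochondrial RNA stability and decay, 0 were higher and 3 lower untreated and 1 higher and 3 lower with DMSO. The 11 regulators include GABPA and GABPB2, subunits of the ETS factor whose motif is given above as CCGGAAG, and whether it binds the printed promoters was not tested. Without treatment GABPB2 was higher by 1.07 (adjusted p = 6.5e-05) and GABPA by 1.01 (adjusted p = 9.41e-05), along with MTO1, a mitochondrial tRNA modification enzyme, by 1.14 (adjusted p = 1.19e-06). With DMSO the coactivator gene PPARGC1B was higher by 1.38 (adjusted p = 8.55e-07), TRIT1, which modifies tRNA, by 1.13 (adjusted p = 8.06e-08), MYC by 0.93 (adjusted p = 0.000511) and PTCD2 by 0.92 (adjusted p = 0.000261).

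FASTK and REXO2 were among the lowest in PARP1-KO cells in each of the 5 treatments. FASTK, of the family of mitochondrial RNA-binding FASTK proteins, fell by 1.24 without treatment, 1.06 with DMSO, 1.14 with OL9-119, 1.36 with Tpc and 1.00 with both. REXO2, an exonuclease that degrades short RNAs, fell by 1.00, 0.85, 0.80, 0.87 and 0.88. MTERF2, a relative of MTERF1, fell by 0.86 without treatment (adjusted p = 0.00359), the pseudouridine synthase RPUSD4 by 0.93 with DMSO and 0.89 with Tpc, and HSD17B10, a subunit of mitochondrial RNase P, by 0.68 with DMSO. PRIMPOL, a primase-polymerase, fell by 1.16 with OL9-119 and 0.97 with both drugs. Higher in PARP1-KO cells were FASTKD5 (1.04), GABPB2 (0.89) and PPARGC1B (0.80) with OL9-119, SLC25A36 (0.83), TOP1MT (0.78) and GABPB2 (0.75) with Tpc, and PPARGC1B (1.04) and NSUN3 (0.96) with both drugs. TYMP also passed with both drugs, counted 7 to 15 times in each PARP1-KO library and 0 times in each WT library, so no fold is given. The TYMP call was lost whichever of its 8 libraries was left out, and so were those of PRIMPOL with both drugs in 6 of 8 such fits, RPUSD4 with Tpc in 6, GABPB2 with Tpc in 5, NSUN3 with both drugs in 5, MTERF2 without treatment in 4, PPARGC1B with OL9-119 in 4, REXO2 with OL9-119 in 3, RPUSD4 with DMSO in 3, and MYC with DMSO, REXO2 with Tpc and REXO2 with both drugs in 1 each. Without the 2 libraries that went against their labels, RPUSD4 with DMSO and PRIMPOL, TYMP and NSUN3 with both drugs no longer passed.

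In WT cells, 0 of the 71 other nuclear genes rose and 1 fell with OL9-119, 3 rose with Tpc, and 6 rose and 1 fell with both drugs, or 1.41%, 4.23% and 9.86% of the list, where 3.43%, 2.3% and 10.6% of genes with a mean CPM of at least 10 passed. HSD17B10 fell by 0.81 with OL9-119 (adjusted p = 0.00035) and by 0.85 with both drugs (adjusted p = 8.67e-05). MTO1 rose by 0.87, TOP3A, the mitochondrial and nuclear topoisomerase 3 alpha, by 0.72 and the coactivator PPRC1 by 0.62 with Tpc. With both drugs MTO1 rose by 0.94, GABPA by 0.90 and the nuclease EXOG by 0.84. Against DMSO-treated cells the calls were lost for HSD17B10 with OL9-119 (−0.55, adjusted p = 0.0287), MTO1 (0.68, adjusted p = 0.0228) and TOP3A (0.44, adjusted p = 0.141) with Tpc, and GABPA (0.75, adjusted p = 0.0107) and EXOG (0.04, adjusted p = 1.0) with both drugs. All 8 of the WT calls named here, HSD17B10 and MTO1 with both drugs and PPRC1 included, were lost with only the libraries compared and without the 8 WT libraries under 17000 genes, and EXOG was lost in 6 of 8 fits without 1 library, GABPA in 3, TOP3A in 3, MTO1 with Tpc in 2 and HSD17B10 with OL9-119 in 1. In PARP1-KO cells 0 of the 71 passed in any treatment by edgeR or DESeq2, with 0, 2, 3 and 3 at an unadjusted p under 0.05 for DMSO, OL9-119, Tpc and both.

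Of the RNAs that this machinery makes, 6 to 10 of the 12 heavy-strand mRNAs were lower in PARP1-KO than in WT cells in each treatment, whereas of the 2 ribosomal RNAs MT-RNR2 was lower in 3 treatments and MT-RNR1 higher in 1. None of the 10 members was called lower in PARP1-KO than in WT cells as reported here. TFAM was called lower with length and GC offsets, and POLG was called lower with Tpc without the 8 WT libraries under 17000 genes (−0.47, adjusted p = 0.000499) and without WT Tpc replicate 2 (−0.47, adjusted p = 0.00815). Of the 12 mRNAs encoded on the heavy-strand transcript, 9 were lower and 0 higher in untreated PARP1-KO against WT cells (median −0.83), and 10 lower and 0 higher with DMSO (median −1.04). With OL9-119 there were 7 lower, with Tpc 6 and with both drugs 6, and none was higher. Without the 2 libraries that went against their labels the count with DMSO was again 10 lower and 0 higher (median −1.08) and with both drugs 6 lower and 0 higher. Their summed level was 48700 ± 5865 CPM in untreated WT and 26620 ± 2467 CPM in untreated PARP1-KO cells, and 52330 ± 6361 and 24540 ± 1709 CPM with DMSO (24810 ± 1985 CPM, n = 3, without the library labelled PARP1-KO DMSO replicate 3). Of the ribosomal RNAs, MT-RNR2 was lower in PARP1-KO cells untreated (−0.59, adjusted p = 0.000159), with DMSO (−0.58, adjusted p = 0.000163) and with Tpc (−0.42, adjusted p = 0.0096). MT-RNR1 was higher with OL9-119 (0.69, adjusted p = 0.00622) and differed by 0.22 untreated and 0.48 with DMSO, which did not pass. In WT cells 8 of the 12 fell with OL9-119 (median −0.61, summed level 30280 ± 2993 CPM) and 5 fell with Tpc and OL9-119 (median −0.49), and 0 passed with Tpc alone.

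MT-ND6, the mRNA of the light-strand transcript, stood at 428.8 ± 103.2 CPM in untreated WT and 210.5 ± 55.1 CPM in untreated PARP1-KO cells, a log2 fold change of −1.02 (adjusted p = 0.000514). With OL9-119 in WT cells MT-ND6 was at 151.5 ± 19.2 CPM (−1.5, adjusted p = 1.17e-05). MT-ND6 and MT-ND5 lie on opposite strands next to each other, so without the strand of counting they are uncertain. RNA was selected by its poly(A) tail, so the values of mtDNA-encoded mRNAs and ribosomal RNAs also depend on how much of each was kept. That share was not tested. MT-ND5 was at 2672 ± 282 CPM in untreated WT cells and 591.2 ± 72.0 CPM with OL9-119, and fell by 2.18 on the log2 scale (adjusted p = 5.79e-10). In PARP1-KO cells MT-ND5 went from 1883 ± 234 CPM to 609.3 ± 114.5 CPM with OL9-119 (−1.63, adjusted p = 4.43e-05). With both drugs MT-ND5 differed by −0.92 in PARP1-KO cells (adjusted p = 0.548), and by −1.61 (adjusted p = 4.01e-12) once the library labelled Tpc with OL9-119 replicate 3, at 2140 CPM, and the library labelled DMSO replicate 3, at 712 CPM, were left out. The fall of MT-ND5 with OL9-119 was seen in both genotypes, and the test of the difference did not pass (0.55, adjusted p = 0.775).

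**Figure D3:**
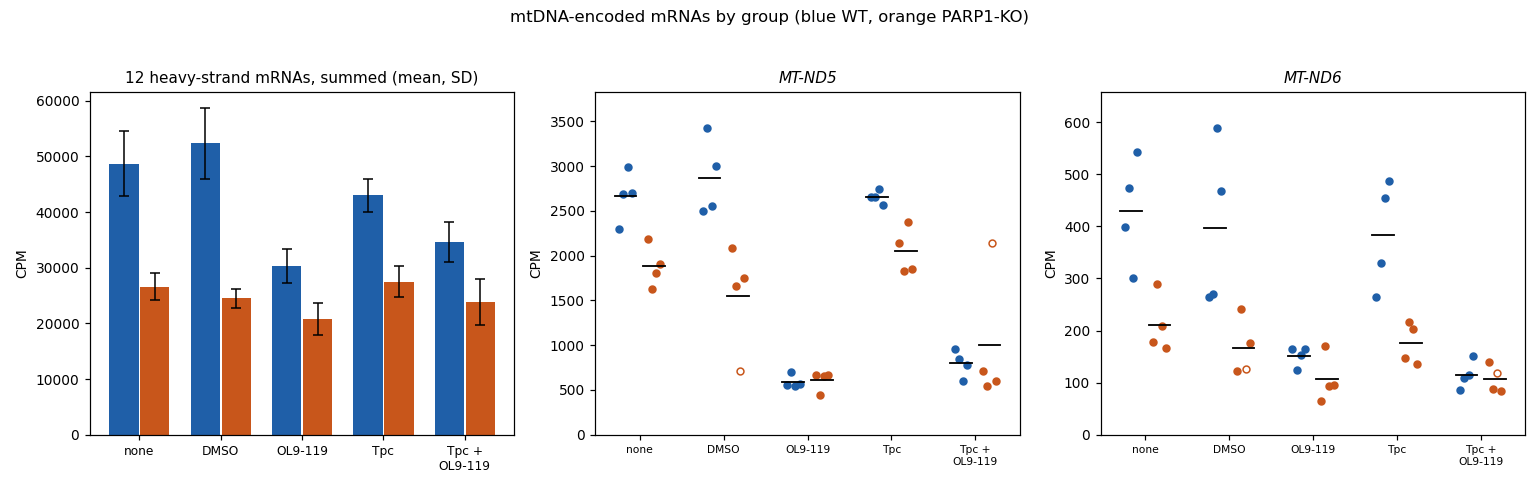
Summed CPM of the 12 heavy-strand mRNAs (mean, with SD as bars, n = 4 libraries) and CPM of MT-ND5 and MT-ND6 in each library, by treatment and genotype. The summed level with DMSO was 52330 CPM in WT and 24540 CPM in PARP1-KO cells, and the open circles mark the PARP1-KO libraries at 712 CPM of MT-ND5 with DMSO and 2140 CPM with Tpc and OL9-119.

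The members whose group means moved most like those of other genes are given as a description over 10 group means, which share libraries and depth, among 10523 genes with a mean CPM of at least 10. TFB2M was most like SH3BP5-AS1 (r = 0.97) and PDCD7 (r = 0.964), TWNK most like GABARAPL1 (r = 0.974) and NEDD9 (r = 0.959), and MTERF1 most like FAM200A (r = 0.932) and NIPA2 (r = 0.919). POLRMT was most like SPHK2 (r = 0.939) and YDJC (r = 0.934), TFAM most like PCDH9 (r = 0.948) and ANGEL2 (r = 0.94), and TFB1M most like TRMT11 (r = 0.962) and JPH1 (r = 0.957). SLIRP was most like ATP5F1C, a subunit of mitochondrial ATP synthase (r = 0.965), and VMP1 (r = 0.932), LRPPRC most like CUL9 (r = 0.982) and CLIC4 (r = 0.931), POLG most like TAF1C (r = 0.982) and FOXP4 (r = 0.973), and TEFM most like TRUB2, a pseudouridine synthase of mitochondrial RNA (r = 0.874), and FAM104B (r = 0.857).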

How the data were processed

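RNA was sequenced from WT and PARP1-KO HEK293A cells, 5 treatments each, as directional poly(A) libraries. The authors aligned reads to hg38 with STAR 2.7.8, with FastQC 0.11.9 and Picard 2.26.6 named in the submitters' processing notes, and deposited raw read counts per Ensembl gene; the strand column kept is not given in the sources used here. Values are those counts, with no normalization by the authors.

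From these counts, genes with at least 10 counts over the 40 libraries (28922 of 58395) were normalised by TMM and tested with edgeR 4.0.16 (quasi-likelihood test, limma 3.58.1, R 4.3.3) in 1 fit over 10 groups, with Benjamini-Hochberg adjustment and a threshold of 0.01. CPM are TMM-scaled. The fit was tested on simulated data. Totals of 3455043 to 20379777 counts make counting error small for members other than TFB1M, TFB2M and TEFM. Lengths and positions came from GENCODE, matched to 57754 of the 58395 gene identifiers. Alternatives were an adjusted p under 0.05, DMSO-treated cells as comparator, other size factors, other filters, a replicate block, the library name prefix, length and GC offsets, library complexity, only the libraries compared, DESeq2 1.42.0 and each library left out.

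The members and gene lists were chosen with earlier results of these data known. Named were all members, PARP1, the other mitochondrial genes with the 4 highest and 4 lowest called log2 fold changes with DMSO and the 3 highest and 3 lowest in each other comparison, MT-ND5, MT-ND6, and the 2 genes most like each member.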

Additional observations from a re-analysis of the deposited data

Results flagged for a closer look

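Over the 100 sets of 4 libraries (10 members in 10 groups), 7 held 1 library far from the other 3 by Dixon's test at the 95% level, where chance gives about 1 in 20. In PARP1-KO cells with DMSO, TFAM stood at 277 CPM in the library labelled replicate 3 and at 186 to 199 CPM in the others. Without it the PARP1-KO minus WT difference of TFAM with DMSO was −0.06 in place of 0.09, and neither passed. In PARP1-KO cells with Tpc and OL9-119, LRPPRC stood at 313 CPM in the library labelled replicate 3 and at 244 to 255 CPM in the others. These are the 2 libraries that went against their labels.

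TFB2M stood at 18.7 CPM in untreated WT replicate 3 and at 6.0 to 7.83 CPM in the others. Without it the untreated PARP1-KO minus WT difference of TFB2M was 0.84 (adjusted p = 0.0671) in place of 0.35, and the call on the mean of the 3 conditions without Tpc was kept at 1.04. TFB2M stood at 6.86 CPM in WT replicate 4 with Tpc and OL9-119 and at 3.36 to 3.61 CPM in the others. Without it the WT difference of TFB2M with both drugs against untreated cells passed, at −1.51 (adjusted p = 0.00536). TEFM stood at 12.7 CPM in WT replicate 2 with Tpc, where the others held 16.1 to 16.7 CPM. MTERF1 stood at 38.2 CPM in PARP1-KO replicate 3 with Tpc, where the others held 27.6 to 29 CPM. SLIRP stood at 59.3 CPM in PARP1-KO replicate 2 with OL9-119, where the others held 39.7 to 42.9 CPM. Leaving out the libraries of TEFM, MTERF1, SLIRP or LRPPRC changed no call of that gene in a comparison of 2 groups.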

How the results depend on the processing

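The number of the 10 members called changed as follows. PARP1-KO against WT: untreated, from 0 to 1 with length and GC offsets (with or without the replicate block) and without the 8 libraries under 17000 genes; with DMSO, from 3 to 0 with only the libraries compared; with OL9-119, from 1 to 2 with RLE size factors, the replicate block, complexity as covariate or both KO libraries that go against their labels left out, to 3 at an adjusted p under 0.05, with filterByExpr, only the libraries compared or DESeq2, and to 4 without the 8 libraries; with Tpc, from 0 to 1 at 0.05, with the offsets and without the 8 libraries; with both drugs, from 2 to 1 with complexity and without the 8 libraries. In WT cells against untreated ones: OL9-119, from 2 to 0 against DMSO, with only the libraries compared and without the 8 libraries, and to 1 with the offsets; Tpc, from 0 to 1 at 0.05, against DMSO, without the 8 libraries and with DESeq2; both drugs, from 0 to 3 at 0.05, to 2 with DESeq2 and to 1 against DMSO, without a filter, with filterByExpr and with the offsets. Tpc added to OL9-119 went from 0 to 2 at 0.05 and with DESeq2 and to 1 with the offsets. In the other comparisons the count did not change by over 1.5 times under any alternative run. Without 1 library it ranged from 0 to 1 (untreated and Tpc, PARP1-KO against WT), 1 to 3 (DMSO), 1 to 2 (OL9-119 and both drugs) and 3 to 4 (mean of 3 conditions), and in WT cells from 0 to 2 (OL9-119 and both drugs) and 0 to 1 (Tpc); elsewhere it was 0.

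TFAM in PARP1-KO against WT cells reversed with length and GC offsets, to −0.295 untreated, −0.292 with DMSO and −0.282 (−0.283 with the replicate block) in the mean. Replicate numbers did not pair the libraries throughout: same-numbered libraries correlated from −0.273 to 0.586, over 0.1 in 21 of 68 pairs. Within WT cells replicate 4 correlated at 0.182 to 0.586, and within PARP1-KO cells replicate 2 correlated at 0.238 to 0.466. The other numbers held values of either sign within a genotype. Beyond the OL9-119 count above, the block alone changed no count of members by over 1.5 times. Over all genes, calls ranged from 1636 to 5585 with DMSO (3592 as reported, PARP1-KO against WT), from 42 to 816 (371) for OL9-119, 61 to 594 (248) for Tpc and 225 to 2476 (1177) for both in WT cells, and 0 to 129 (4) for Tpc in PARP1-KO cells, the lowest of the first 4 with only the libraries compared. TFB2M, counted as few as 16 times, and TFB1M, as few as 35 times, are the members most limited by depth. The causes of these changes were not tested.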
